A study of Mus musculus with 6 samples.

Results

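The malate-aspartate shuttle and the glycerol phosphate shuttle were represented by 10 genes out of the 54532 in the deposited count table: Got1, Got2, Mdh1, Mdh2, Slc25a11, Slc25a12, Slc25a13, Gpd1, Gpd1l and Gpd2. They were chosen by gene name as the textbook components of both shuttles. Their transcripts were compared between WT and GOT1-/- T helper 17 (Th17) cells, with 3 libraries per genotype. Both groups came from C57BL/6 mice of either sex aged 6 to 10 weeks, and the GOT1-/- mice lacked GOT1 in T cells only. Naive T cells sorted as CD4+CD25-CD62L+CD44- were activated with anti-CD3 (5 ug/ml) and anti-CD28 (2 ug/ml). The Th17 medium of both groups contained 2.5 ng/ml of TGF-beta, 10 ng/ml of each of the cytokines IL-23, IL-6 and IL-1beta, and 2 ug/ml of each of the antibodies anti-IL-4 and anti-IFN-gamma. Medium was renewed on day 2 and poly-A RNA was taken on day 4. The sources used here give neither the Cre driver nor the deleted stretch of Got1.

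Cytosolic NADH made by glycolysis cannot cross the inner mitochondrial membrane, so its electrons are carried in by shuttles. In the malate-aspartate shuttle, MDH1 uses cytosolic NADH to turn oxaloacetate into malate, the carrier SLC25A11 takes malate into the mitochondrion in exchange for alpha-ketoglutarate, and MDH2 turns it back into oxaloacetate and makes NADH there. GOT2 then converts oxaloacetate and glutamate to aspartate and alpha-ketoglutarate, SLC25A12 or SLC25A13 exports the aspartate in exchange for glutamate, and GOT1 regenerates oxaloacetate in the cytosol. In the glycerol phosphate shuttle, cytosolic GPD1 uses NADH to reduce dihydroxyacetone phosphate to glycerol 3-phosphate, and GPD2, on the outer face of the inner mitochondrial membrane, oxidises it again and passes the electrons to ubiquinone. GPD1L is a close relative of GPD1. Activated T cells are known for a high glycolytic rate and for their demand for aspartate.

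Promoters were available for 9 of the 10 genes. Those of Got1 and of the 3 genes that were higher in GOT1-/- cells are shown because the fold changes described below turn on these genes. Each runs from 250 bases before to 50 bases after a RefSeq start (GRCm38.p6), read 5′ to 3′ on the gene's strand. They lie at chr19:43524556-43524855 (minus strand) for Got1, chr5:135778399-135778698 (plus strand) for Mdh2, chr11:70646990-70647289 (minus strand) for Slc25a11, and chr2:57238132-57238431 (plus strand) for the downstream of both Gpd2 promoters. Capitals mark every match to the motifs named in the next paragraph.
Got1: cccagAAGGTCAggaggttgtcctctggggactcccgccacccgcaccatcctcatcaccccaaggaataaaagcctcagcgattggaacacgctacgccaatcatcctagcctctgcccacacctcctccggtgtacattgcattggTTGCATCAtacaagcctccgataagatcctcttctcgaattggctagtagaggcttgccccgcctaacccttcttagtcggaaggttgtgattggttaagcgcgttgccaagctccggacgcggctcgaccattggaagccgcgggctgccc
Mdh2: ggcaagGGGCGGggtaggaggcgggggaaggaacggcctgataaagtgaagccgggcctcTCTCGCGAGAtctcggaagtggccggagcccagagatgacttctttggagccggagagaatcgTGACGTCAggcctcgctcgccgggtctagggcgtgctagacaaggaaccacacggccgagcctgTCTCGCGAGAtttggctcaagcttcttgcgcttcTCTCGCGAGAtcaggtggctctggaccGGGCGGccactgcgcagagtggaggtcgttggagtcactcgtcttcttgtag
Slc25a11: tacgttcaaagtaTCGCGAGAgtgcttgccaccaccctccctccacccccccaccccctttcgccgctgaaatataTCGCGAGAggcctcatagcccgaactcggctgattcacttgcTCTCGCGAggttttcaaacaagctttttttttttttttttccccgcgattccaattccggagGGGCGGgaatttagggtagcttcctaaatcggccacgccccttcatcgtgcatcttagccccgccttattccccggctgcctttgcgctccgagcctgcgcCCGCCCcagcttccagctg
Gpd2: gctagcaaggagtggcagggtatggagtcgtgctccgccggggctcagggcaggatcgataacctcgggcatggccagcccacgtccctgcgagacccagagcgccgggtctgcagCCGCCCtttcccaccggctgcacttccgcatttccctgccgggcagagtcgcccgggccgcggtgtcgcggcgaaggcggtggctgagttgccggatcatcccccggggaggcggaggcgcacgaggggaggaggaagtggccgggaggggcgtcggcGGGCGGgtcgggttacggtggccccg

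Both strands were searched for 8 motifs, and no matches of different motifs overlapped. The GC box GGGCGG, which Sp-family factors bind, was found in promoters of 5 of the 9 genes (Mdh1, Mdh2, Slc25a11, Gpd1l and Gpd2), and in 35.7% of all 32851 promoters. In the Gpd2 promoter shown it began 134 bases before and 24 bases after the start. The upstream Gpd2 promoter and those of Got2 and Slc25a12 held no match to any of the motifs. Got1 had the only match to the amino acid response site TGATGNAA, which ATF4 binds, 102 bases before its start on the opposite strand (3.97% of all promoters). Got1 also had the only match to AAGGTCA, the site of estrogen-related receptors, 245 bases before its start (4.72% of all promoters). The cyclic AMP response element TGACGTCA was found in Mdh2 alone, 127 bases before its start (1.79% of all promoters). The E-box CACGTG was found in Slc25a13 and Gpd1l (7.15% of all promoters). No match was found to the NRF1 core GCGCATGC (2.71% of all promoters) or to the ETS site CCGGAAG (8.86%). The shares of all promoters are per promoter and include genes not tested here. Members were counted per gene, with both Gpd2 promoters searched, so these shares are not a like-for-like background.

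The Mdh2 and Slc25a11 promoters each held the CGCG element TCGCGAGA at 3 places, and the other members' promoters did not hold it. This motif was added after the promoters had been read. In Mdh2 each place read the same on both strands, TCTCGCGAGA, and began 190, 63 and 29 bases before the start. In Slc25a11 the places began 237, 174 and 132 bases before the start, and the last of these was on the opposite strand. These distances are from the RefSeq starts, and the deposited spans of both genes begin further upstream. The Slc25a11 stretch shown lies wholly inside the deposited span of its gene, and the Mdh2 stretch lies partly inside. Among tested genes with a promoter, the element was present for 2.55% of all, 2.2% of those called higher in GOT1-/- cells and 2.9% of those called lower. The sharing of this element by Mdh2 and Slc25a11 is thus a description of these sequences, and it was no more frequent among genes called higher than among all genes tested.

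Library totals ranged from 16463752 to 22541410 counts, and levels are given as CPM (counts per 1000000, on library sizes adjusted by edgeR's trimmed mean of M-values). The limit that a count of 0 allows, taken as 3 counts, lay between 0.133 and 0.182 CPM of the library totals. Since the labels leave it unsaid whether each replicate is a different animal, p-values here reflect the spread among these libraries alone, and that spread may be technical. All 7 T cell markers and all 6 Th17 markers passed the filter, and in each list 1 was called higher and 3 lower in GOT1-/- cells. Their summed levels were 3464 to 3542 CPM in WT and 2946 to 3126 CPM in GOT1-/- libraries for T cell markers, and 1368 to 1484 CPM against 1254 to 1353 CPM for Th17 markers. Markers of other cells differed with genotype: 3 of 6 macrophage, monocyte and neutrophil markers were higher in GOT1-/- (summed 4.65 to 7.13 CPM in WT and 16.4 to 18.2 CPM in GOT1-/-), as were 3 of 4 mast cell and basophil markers (2.42 to 3.61 against 9.69 to 10.6 CPM) and 2 of 4 NK and gamma-delta T cell markers (4.55 to 6.22 against 9.74 to 10.6 CPM). Both called markers of the NK and gamma-delta list were gamma-delta genes, Trdc and Tcrg-C2. Its NK markers Ncr1 and Klrb1c had too few counts to be tested. B cell and CD8 T cell markers had no member called, and erythroid markers were at or near 0. Mitochondrially encoded genes took 1.56 to 1.88% of counts in WT and 1.1 to 1.14% in GOT1-/- libraries. The part of these differences in the results for the shuttle genes was not tested.

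Of the 10 shuttle genes, 3 were higher and 1 was lower in GOT1-/- cells. The gene that fell was the deleted Got1, and the genes that rose were Mdh2 and Slc25a11 of the malate-aspartate shuttle and Gpd2 of the glycerol phosphate shuttle. Got2, Mdh1, Slc25a12, Slc25a13 and Gpd1l were tested and not called, and Gpd1 had too few counts to be tested. Calls were made at an adjusted p under 0.05 (quasi-likelihood test of edgeR, adjusted by the Benjamini-Hochberg method over 12873 genes). By the same rule 43.8% of all genes tested were called, 22.9% higher and 21% lower, so a count of 3 higher among 10 genes is near the background. Apart from Got1, the tested members had log2 fold changes from -0.07 (Slc25a12) to 0.35 (Gpd2). The median size of the log2 fold change was 0.13 over these 8 genes and 0.27 over all genes tested. These sets were not matched for expression level, so the medians do not show that the members moved less than comparable genes.

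**Figure D1:**
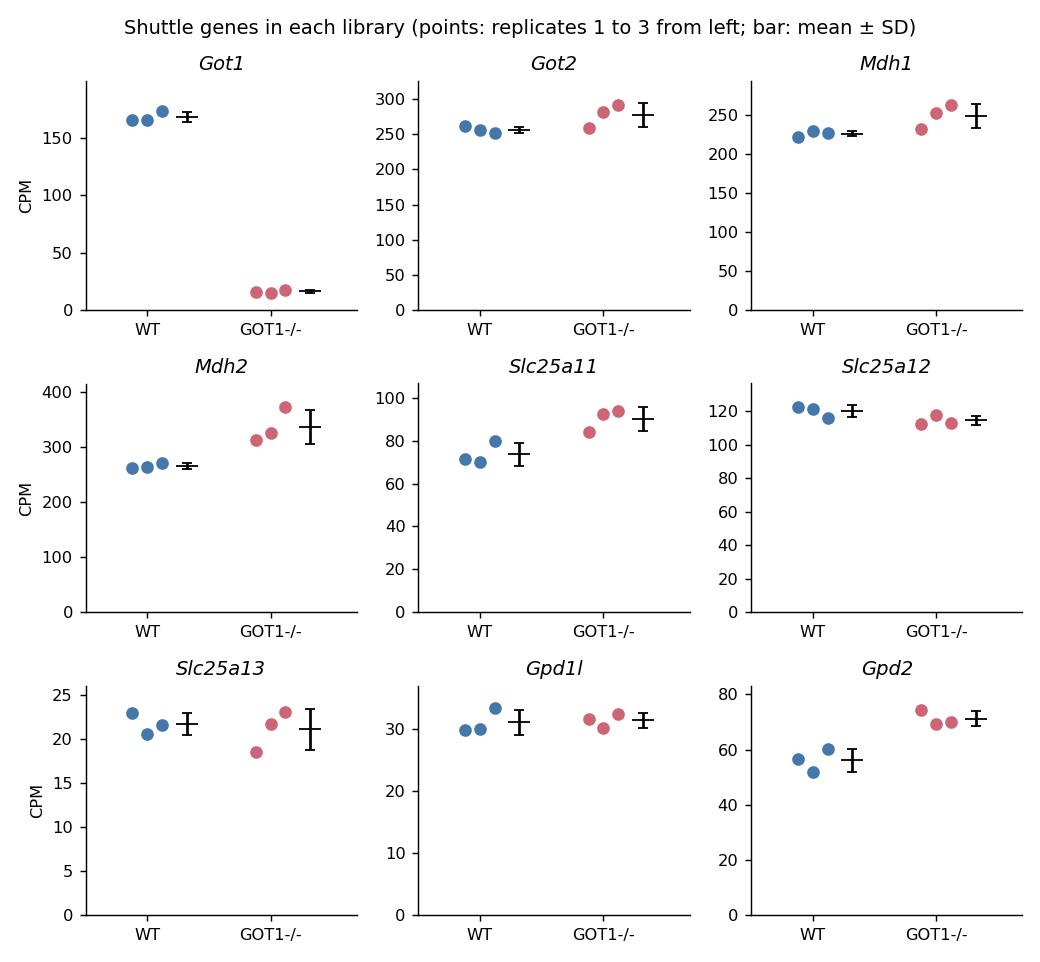
CPM (y axis, from 0) of the 9 shuttle genes tested, in WT (blue) and GOT1-/- (red) libraries; points are replicates 1 to 3 from left to right and the bar gives the mean ± SD. Got1 lies at 15 to 17.5 CPM in GOT1-/- libraries against 165.2 to 173.5 CPM in WT, and the GOT1-/- libraries lie above all WT libraries for Mdh1, Mdh2, Slc25a11 and Gpd2.

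Got1 (ENSMUSG00000025190, chr19:43499752-43524605 on GRCm38, minus strand, 9 exons) encodes the cytosolic aspartate transaminase. Its level was 165.9, 165.2 and 173.5 CPM in WT replicates 1 to 3 and 16, 15 and 17.5 CPM in GOT1-/- replicates 1 to 3. All GOT1-/- libraries were far below all WT libraries, and replicates of a genotype lay close together. The log2 fold change was -3.38 (SE 0.08, 95% interval -3.56 to -3.21, adjusted p = 2.15e-14 by edgeR), so 9.6% of the WT level remained. The reads that remained, 332, 339 and 300 counts, were far above the limit that a count of 0 allows. In bulk RNA, fewer cells carrying a transcript and less of it per cell cannot be told apart, and this holds for every level given here.

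Its mitochondrial counterpart Got2 (ENSMUSG00000031672, chr8:95864134-95888547, minus strand, 10 exons), which makes the aspartate that leaves the mitochondrion, was not called. Got2 was measured at 261.2, 255.8 and 252.1 CPM in WT and at 258.8, 281.9 and 291.4 CPM in GOT1-/- replicates 1 to 3. The lowest GOT1-/- library lay within the WT range and the other two lay above it. The log2 fold change of Got2 was 0.11 (SE 0.07, 95% interval -0.03 to 0.26, adjusted p = 0.187 by edgeR), which leaves room for a rise of the size seen for Mdh1 but not for that of Mdh2. A pseudogene of Got2 listed separately in the table, Got2-ps1, had 26 counts over all 6 libraries.

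The malate dehydrogenase genes differed in their calls. Mdh2 (ENSMUSG00000019179, chr5:135778480-135790398, plus strand, 9 exons), the mitochondrial enzyme that also serves the citric acid cycle, was measured at 262.3, 264.5 and 272.1 CPM in WT and at 312.7, 325.3 and 372.3 CPM in GOT1-/- replicates. Every GOT1-/- library was above every WT library, and GOT1-/- replicate 3 stood highest. Mdh2 rose 1.26-fold (log2 fold change 0.34, SE 0.07, 95% interval 0.19 to 0.49, adjusted p = 0.00124 by edgeR). Mdh1 (ENSMUSG00000020321, chr11:21556787-21572367, minus strand, 9 exons), the cytosolic enzyme that uses up NADH, was measured at 222.4, 229.8 and 227.3 CPM in WT and at 232.5, 253.1 and 262.9 CPM in GOT1-/- replicates. The GOT1-/- libraries again lay above the WT libraries, the lowest of them only slightly. Mdh1 did not pass the threshold (log2 fold change 0.14, SE 0.07, 95% interval -0.004 to 0.28, adjusted p = 0.107 by edgeR). Without GOT1-/- replicate 1 its log2 fold change was 0.19 and its adjusted p 0.0348, and with upper-quartile scaling they were 0.17 and 0.04996. Mdh1 shares 52 exonic bases with Wdpcp on the opposite strand, which had a mean of 29 counts per library.

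Of the carriers, Slc25a11 (ENSMUSG00000014606, chr11:70644196-70647479, minus strand, 8 exons), the malate and alpha-ketoglutarate carrier, was the only member called. Its level was 71.4, 69.8 and 79.6 CPM in WT and 83.8, 92.3 and 93.97 CPM in GOT1-/- replicates 1 to 3. The highest WT library and the lowest GOT1-/- library were close but did not overlap. Slc25a11 rose 1.22-fold (log2 fold change 0.29, SE 0.08, 95% interval 0.13 to 0.46, adjusted p = 0.00592 by edgeR). The call was lost after correction for the trend over gene length described below. Slc25a11 shares 189 exonic bases with Rnf167 on the opposite strand, a ubiquitin ligase gene that went the other way, from 37.9 ± 4.81 CPM in WT to 27.3 ± 4.21 CPM in GOT1-/- (SD, n = 3 each, adjusted p = 0.00251 by edgeR). The sources used here do not give the strand setting of the authors' counting, so reads from the shared bases may have gone to either gene.

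The genes of the aspartate and glutamate carriers were not called. Slc25a12 (ENSMUSG00000027010, chr2:71271063-71367749, minus strand, 18 exons), which encodes aralar, was measured at 122.7, 121.3 and 116.2 CPM in WT and at 112.6, 117.7 and 113.1 CPM in GOT1-/- replicates. Slc25a13 (ENSMUSG00000015112, chr6:6041218-6217173, minus strand, 18 exons), which encodes citrin, was measured at 22.9, 20.5 and 21.6 CPM in WT and at 18.5, 21.7 and 23 CPM in GOT1-/- replicates. The genotypes overlapped for both carriers, and GOT1-/- libraries included both the lowest and the highest value of Slc25a13. The log2 fold change was -0.07 (SE 0.07, 95% interval -0.21 to 0.07, adjusted p = 0.424) for Slc25a12 and -0.04 (SE 0.10, 95% interval -0.26 to 0.17, adjusted p = 0.749) for Slc25a13, both by edgeR. The interval of Slc25a12 does not reach the fitted rise of Slc25a11, but with length and GC correction the order turned, with 0.087 for Slc25a12 and 0.071 for Slc25a11.

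In the glycerol phosphate shuttle transcripts of the mitochondrial enzyme rose, and those of the cytosolic enzyme GPD1 were nearly absent in both genotypes. Gpd2 (ENSMUSG00000026827, chr2:57237635-57370719, plus strand, 17 exons), the flavin-linked dehydrogenase of the inner membrane, was measured at 56.5, 51.8 and 60.1 CPM in WT and at 74.4, 69.3 and 70.1 CPM in GOT1-/- replicates. All GOT1-/- libraries were above all WT libraries, with a gap wider than the range within GOT1-/-. Gpd2 rose 1.27-fold (log2 fold change 0.35, SE 0.08, 95% interval 0.18 to 0.51, adjusted p = 0.0018 by edgeR). Gpd1 (ENSMUSG00000023019, chr15:99717515-99725005, plus strand) had 2 counts in WT replicate 3 and 0 in the other 5 libraries. This is at or under the limit of 0.133 to 0.182 CPM that a count of 0 allows, so no difference could be detected at this depth. Of the adipocyte markers, taken along because fat tissue is known for high Gpd1, none reached the test, their summed level was at most 0.338 CPM in any library, and Cidec was at 0 in every library.

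Gpd1l (ENSMUSG00000050627, chr9:114899341-114933987, minus strand, 8 exons) was therefore the cytosolic member of this family with measurable transcripts. It was measured at 29.9, 29.96 and 33.3 CPM in WT and at 31.6, 30.1 and 32.5 CPM in GOT1-/- replicates. All GOT1-/- libraries lay within the WT range. The log2 fold change of Gpd1l was 0.02 (SE 0.09, 95% interval -0.16 to 0.20, adjusted p = 0.895 by edgeR).

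Libraries of the 2 genotypes did not overlap in CPM for 5 members, with GOT1-/- above WT for Mdh1, Mdh2, Slc25a11 and Gpd2 and below it for Got1. Over all genes tested this was so for 53.4%. Members of both shuttles on the mitochondrial side (Mdh2, Slc25a11, Gpd2) made up all 3 that rose, but Got2, Slc25a12 and Slc25a13, which are also mitochondrial, were not called, and no test of location was made.

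Levels were compared between members per kilobase of deposited gene length. In WT cells Mdh1 was highest at 88.2 ± 1.46 CPM per kb, followed by Mdh2 at 74.8 ± 1.44, Got1 at 66.2 ± 1.81 and Got2 at 53.1 ± 0.948 CPM per kb (SD, n = 3 each). Transcripts of the soluble enzymes of the malate-aspartate shuttle thus stood above those of its carriers. Slc25a11 followed at 34.7 ± 2.48, Slc25a12 at 16.4 ± 0.465, Gpd2 at 8.57 ± 0.641, Gpd1l at 6.12 ± 0.390 and Slc25a13 at 5.71 ± 0.317 CPM per kb. Neighbours in this WT order did not overlap between libraries, except Gpd1l and Slc25a13. The order rests on the deposited lengths, and the SDs include no error of these lengths. Without division by length the transcripts of these enzymes stood in another order. Mean WT levels were 266.3 CPM for Mdh2, 256.3 for Got2, 226.5 for Mdh1 and 168.2 for Got1. Per kilobase, aralar transcripts exceeded citrin transcripts, and those of both carriers were far below those of the transaminases.

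In GOT1-/- cells Got1 alone changed its place in the order of these levels. Mdh1 at 97.2 ± 6.05 and Mdh2 at 94.6 ± 8.82 CPM per kb now overlapped without changing places, and were followed by Got2 at 57.5 ± 3.47, Slc25a11 at 42.5 ± 2.59, Slc25a12 at 15.6 ± 0.385 and Gpd2 at 10.9 ± 0.418 CPM per kb (SD, n = 3 each). Got1 had dropped down the order to a level of 6.37 ± 0.493 CPM per kb. There it overlapped with Gpd1l at 6.18 ± 0.235, which in turn overlapped with Slc25a13 at 5.54 ± 0.613 CPM per kb. Per kb of full deposited length, remaining Got1 reads in GOT1-/- cells were thus at the level of the least expressed shuttle genes that could be tested. In CPM the mean of Got1, 16.2, was below that of Slc25a13, 21.05. Whether the remaining reads came from intact Got1 transcripts was not tested.

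**Figure D2:**
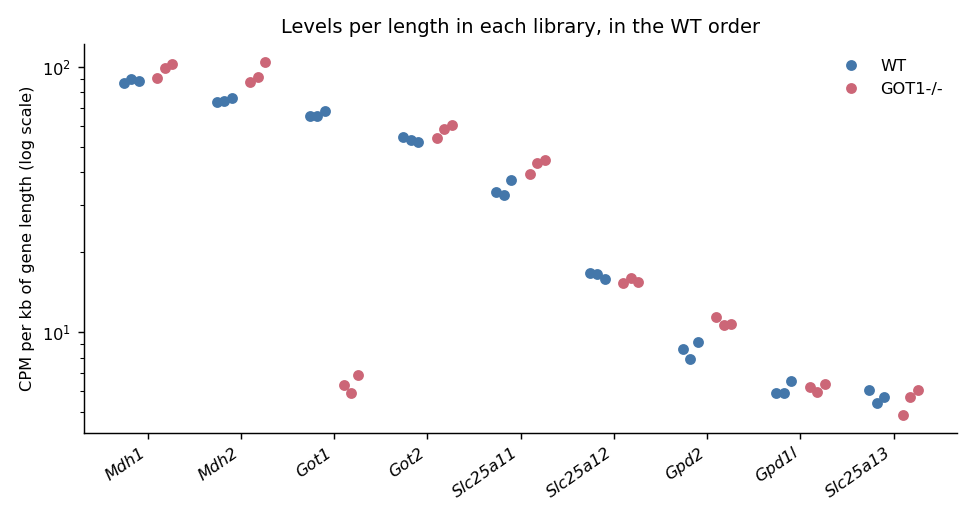
Level of each shuttle gene except Gpd1 in every library, in CPM per kb of deposited gene length (y axis, log scale), ordered by the WT mean; blue points are WT and red points GOT1-/- replicates. Got1 drops from 66.2 to 6.37 CPM per kb, to the level of Gpd1l and Slc25a13, and no other gene moves by as much.

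Ratios between members within a library do not depend on how libraries are scaled. The Got1/Got2 ratio per base of gene length was 1.21, 1.23 and 1.31 in WT libraries against 0.118, 0.101 and 0.114 in GOT1-/- libraries. By this measure transcripts of the cytosolic transaminase went from above to far below those of the mitochondrial one. In CPM, which is not divided by length, Got1 was already below Got2 in WT, with means of 168.2 and 256.3 CPM. The Mdh1/Mdh2 ratio was 1.18, 1.21 and 1.16 in WT libraries against 1.03, 1.08 and 0.98 in GOT1-/- libraries, lower in every GOT1-/- library. The Gpd1l/Gpd2 ratio was 0.682, 0.747 and 0.715 in WT libraries against 0.548, 0.560 and 0.597 in GOT1-/- libraries. The Mdh1/Mdh2 and Gpd1l/Gpd2 ratios were thus both lower in all 3 GOT1-/- libraries. Neither Mdh1 nor Gpd1l was called, whereas Mdh2 and Gpd2 were called higher. Gpd1, the cytosolic enzyme gene of the glycerol phosphate shuttle, could not be tested. The Mdh2/Got2 ratio was 1.36, 1.40 and 1.46 in WT libraries against 1.64, 1.56 and 1.73 in GOT1-/- libraries, higher in every GOT1-/- library. The Slc25a12/Slc25a13 ratio was 2.77, 3.06 and 2.79 in WT libraries against 3.15, 2.81 and 2.54 in GOT1-/- libraries, and here the genotypes overlapped.

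On the log2 scale the difference between genotypes was -3.49 (SE 0.07) for Got1/Got2, -0.20 (SE 0.04) for Mdh1/Mdh2, -0.33 (SE 0.05) for Gpd1l/Gpd2, 0.22 (SE 0.05) for Mdh2/Got2 and -0.02 (SE 0.10) for Slc25a12/Slc25a13. A two-sided exact permutation test with 3 against 3 libraries cannot go below p = 0.10. In the exact test the first 4 ratios reached that smallest value (0.125 after Benjamini-Hochberg adjustment over the 5 ratios), and Slc25a12/Slc25a13 had p = 1. With the correction for gene length described below, the difference of Mdh2/Got2 was 0.15. None of the ratios could therefore pass a threshold of 0.05 in this design, even though 4 of the 5 separated the genotypes without overlap. Each of these 4 holds Got1, Mdh2 or Gpd2, which were called on their own, so the count adds no separate evidence. Of single genes tested, 53.4% separated the genotypes, and the share over other pairs of genes was not computed.

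**Figure D3:**
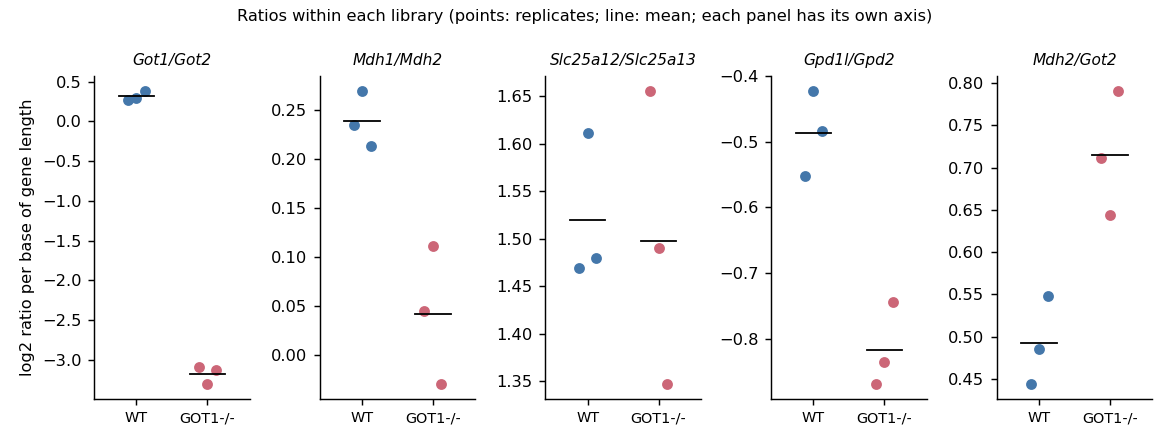
Log2 ratio of a pair of shuttle genes per base of gene length (y axis, own scale in each panel) in each WT (blue) and GOT1-/- (red) library, with a line at the mean. The genotypes do not overlap for Got1/Got2, Mdh1/Mdh2, Gpd1l/Gpd2 and Mdh2/Got2, and overlap for Slc25a12/Slc25a13.

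Fold changes in this comparison ran with gene length across the transcriptome. Over 11526 protein-coding genes, Spearman's rho between deposited length and log2 fold change was -0.397. This is across genes, which are not independent replicates. The shuttle genes span this trend. Slc25a11 (2120 bases) and Mdh1 (2567 bases) are among the shorter members, and the 500 genes nearest to them in length had a median log2 fold change of 0.20 and 0.17. Gpd2 (6549 bases) and Slc25a12 (7342 bases) are the longest, and there the median was -0.10 and -0.11. Mdh2 (3562 bases) had neighbours with a median of 0.07. Gpd2 was thus higher in GOT1-/- where genes of its length tended to be lower, whereas Slc25a11 rose where genes of its length tended to rise.

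After each library's smooth trend over length was removed, Mdh2 and Gpd2 kept their calls and Slc25a11 lost its call. The log2 fold change of Gpd2 was then 0.44 (SE 0.07, adjusted p = 9.94e-05) and that of Mdh2 0.26 (SE 0.07, adjusted p = 0.00409), both by edgeR with length offsets. Slc25a11 had 0.12 (SE 0.07, adjusted p = 0.190), and 0.07 (adjusted p = 0.456) when the trend over GC content was removed too. With both trends removed, Gpd2 had 0.48 (adjusted p = 1.53e-05) and Mdh2 0.245 (adjusted p = 0.00311). Mdh1 had -0.001 (adjusted p = 0.990) with the length correction, so its uncorrected value of 0.14 was no larger than that of genes of its length. Whether the length trend arose in the cells or in library preparation was not tested.

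**Figure D4:**
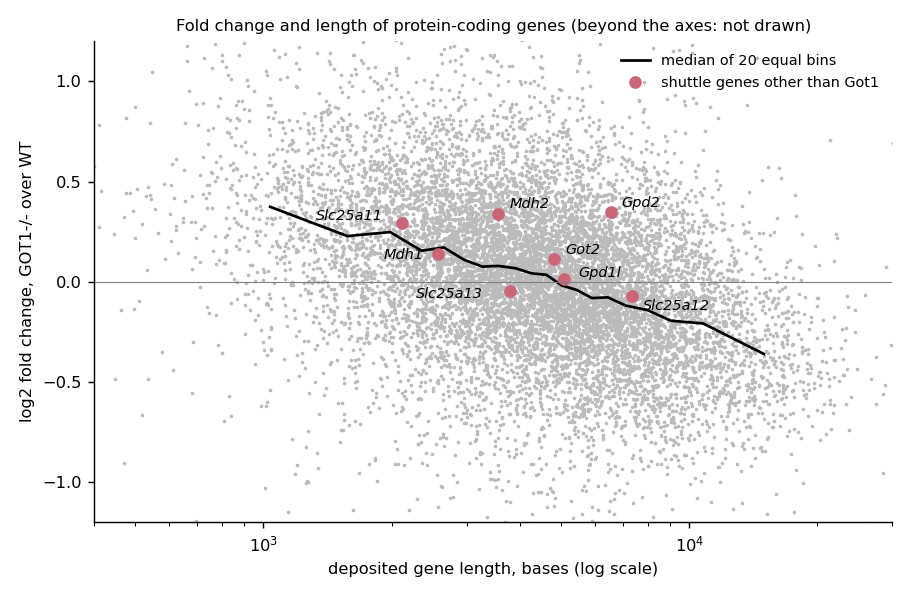
Log2 fold change of GOT1-/- over WT (y axis) against deposited gene length in bases (x axis, log scale) for protein-coding genes tested (grey), with the median of 20 equal bins (line) and the shuttle genes other than Got1 (red). The line falls with length; Slc25a11 and Mdh1 lie near it, and Gpd2 lies well above it.

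**Figure D5:**
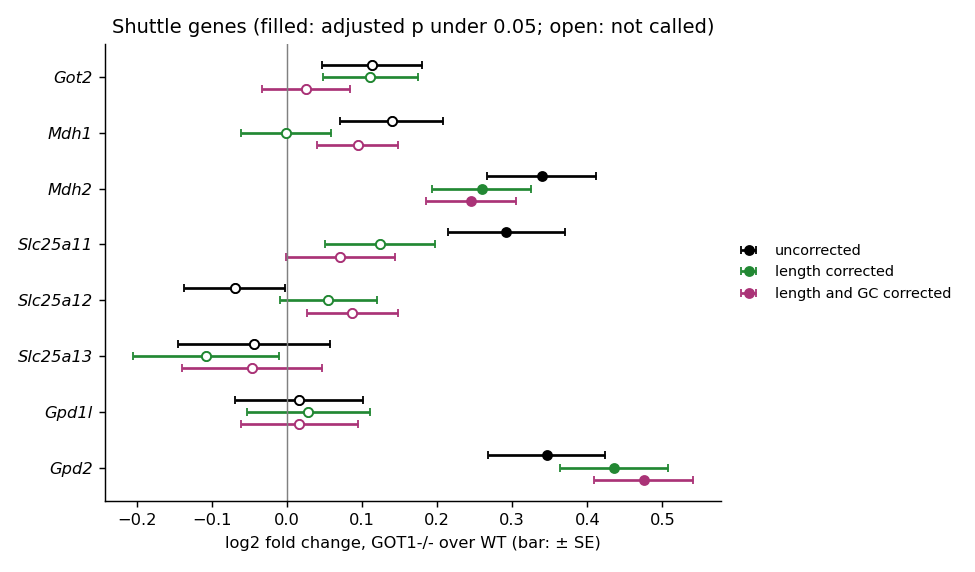
Log2 fold change ± SE of GOT1-/- over WT (x axis) for 8 shuttle genes without correction (black), after length correction (green) and after length and GC correction (magenta); filled points have an adjusted p under 0.05. Mdh2 and Gpd2 stay filled in all 3 fits, Slc25a11 only without correction.

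Patterns across the 6 libraries were most alike for the following genes, by Pearson's r of log2 CPM over 8377 protein-coding genes with a mean of at least 10 CPM. These values carry the genotype difference and rest on 6 libraries, so they are a description with no test. For Mdh2 the closest were Ftl1 (r = 0.998), which encodes ferritin light chain, and Gins4 (r = 0.998), a subunit of the GINS replication complex. For Slc25a11 they were Slc43a3 (r = 0.9996), a purine nucleobase transporter, and Nup155 (r = 0.997), a nuclear pore protein. For Gpd2 they were Fuk (r = 0.987), which encodes fucose kinase, and Slc25a17 (r = 0.987), a peroxisomal carrier.

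Other genes that handle NADH, malate, oxaloacetate, aspartate or glutamate were counted beside the shuttle genes, from a list of 22 names. Of these, 21 were matched in the table and 15 passed the filter. Of the 15, 9 rose, 1 fell and 5 were not called, where 22.9% of all genes tested were called higher and 21% lower. The median log2 fold change was 0.35 against 0.01 over all genes tested. This list was chosen with earlier results of these data known. With length and GC correction 7 of its genes were called higher and 1 lower, and Ldhb and Slc25a1 lost their calls. Pyruvate carboxylase (Pcx), which makes oxaloacetate in mitochondria, rose from 123.1 ± 11.8 to 207.4 ± 8.36 CPM (SD, n = 3 each, log2 fold change 0.75, SE 0.08, adjusted p = 1.17e-06). Glutamate dehydrogenase (Glud1), which converts glutamate to alpha-ketoglutarate, rose from 561.2 ± 28.6 CPM in WT to 821.4 ± 15.7 CPM in GOT1-/- (log2 fold change 0.55, adjusted p = 5.39e-06). Pck2, which turns mitochondrial oxaloacetate into phosphoenolpyruvate, rose from 81.2 ± 5.19 CPM in WT to 119.8 ± 5.87 CPM in GOT1-/- (log2 fold change 0.56, adjusted p = 1.54e-05). Ldha, whose enzyme regenerates NAD in the cytosol by making lactate, rose from 2263 ± 118 CPM in WT to 3217 ± 311 CPM in GOT1-/- (log2 fold change 0.51, adjusted p = 4.33e-05), all by edgeR. The differences between these genes and the shuttle genes were not tested. The gene that fell was Slc25a51, the mitochondrial NAD carrier, named after its values were seen because it was the only such gene (91.8 ± 9.26 CPM in WT and 76.7 ± 3.35 CPM in GOT1-/-, log2 fold change -0.26, adjusted p = 0.0158 by edgeR). Its call was lost without WT replicate 1 (adjusted p = 0.0635) and without WT replicate 2 (adjusted p = 0.0967).

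A further list of 18 genes covered enzymes around dihydroxyacetone phosphate and glycerol 3-phosphate, the substrates of GPD1 and GPD2, and the steps of glycerolipid synthesis that follow from glycerol 3-phosphate. All 18 were tested, and 6 rose, 2 fell and 10 were not called, a share called near the 43.8% of all genes tested. The median log2 fold change was 0.07. A single gene of the list was called lower with DESeq2, with upper-quartile scaling, with no filter, or with any 1 library left out. Agpat3, an acyltransferase of phospholipid synthesis, rose from 187 ± 13 CPM in WT to 336.8 ± 24.1 CPM in GOT1-/- (log2 fold change 0.85, adjusted p = 2.89e-07). Pgp, a phosphatase that acts on glycerol 3-phosphate, rose from 39.2 ± 3.75 CPM in WT to 72.2 ± 5.02 CPM in GOT1-/- (log2 fold change 0.88, adjusted p = 8.74e-07). Tpi1, which interconverts the triose phosphates of glycolysis, rose from 1085 ± 20.3 CPM in WT to 1482 ± 146 CPM in GOT1-/- (log2 fold change 0.45, adjusted p = 0.000105), and its value was 0.27 with length and GC correction. Lpin1, a phosphatidate phosphatase, fell from 98.9 ± 4.35 CPM in WT to 73.3 ± 5.32 CPM in GOT1-/- (log2 fold change -0.43, adjusted p = 0.000232, SD over n = 3 each, all by edgeR). With the length correction the value of Lpin1 was -0.23 (adjusted p = 0.00938).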

How the data were processed

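RNA of 3 WT and 3 GOT1-/- Th17 libraries was measured by poly-A sequencing from 1 ug of RNA with a NEBNext Ultra kit, for which no strand selection is mentioned. The authors deposited raw whole-number counts per gene; STAR and GRCm38 were used, per the submitters' processing notes. The sources used here give no counting tool, strand setting or annotation, so reads of overlapping genes may be divided in ways that cannot be checked. Coordinates and gene lengths are those deposited.

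Samples were grouped by the labels' genotype. Genes passing filterByExpr (minimum count 10, minimum total 15) were tested with edgeR 4.0.16 (R 4.3.3; quasi-likelihood F-test, two-sided, genotype as the only term, TMM scaling), with Benjamini-Hochberg adjustment over all 12873 genes. The procedure was also run on simulated data that held no trend over gene length, and no result given here rests on that run. Alternatives were DESeq2 1.42.0, limma-voom (limma 3.58.1), other scalings, filters and thresholds, the replicate number as a block, each library left out in turn, and offsets that remove each library's trend over length or length and GC content (natural splines, 5 degrees of freedom). Replicates of a genotype differed by more than sampling noise, so all were kept. Limits for a count of 0 cover counting error only.

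The shuttle genes and the other lists were chosen with earlier results of these data known. All shuttle genes are named, and from each other list up to 4 called genes with the smallest adjusted p.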

Additional observations from a re-analysis of the deposited data

How the results depend on the processing

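Over 16 alternatives per gene, Got1 stayed lower, and Mdh2 (log2 fold change 0.245 to 0.39) and Gpd2 (0.29 to 0.48) were called higher in each. Slc25a11 was called in 14 and lost in both corrections for gene length, and Mdh1 was called in 2. Directions turned only for members that were not called: Mdh1 had -0.001 with the length correction, Slc25a12 had 0.055 with it and 0.087 with length and GC correction, and Gpd1l had -0.002 with library totals only. With 1 library left out, Slc25a13 ranged from -0.108 to 0.043 and Gpd1l from -0.021 to 0.058. The log2 difference of the Slc25a12/Slc25a13 ratio was 0.166 with the length correction and -0.102 to 0.053 with 1 library left out. Causes were not tested. Genes called numbered 4426 (without GOT1-/- replicate 2) to 5792, against 5643, and 4008 at an adjusted p under 0.01. No total of calls moved by over 1.5 times; the few genes called lower in the other lists did, as given with those lists.

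Pairing of libraries by replicate number was not evident. Same-numbered libraries had correlations of 0.059, -0.0258 and 0.0332 of their deviations from the group means. Not every library correlated best with its own number. These values, from 3 libraries per genotype, cannot exclude a pairing. With a replicate block 5792 genes and the same number of shuttle genes, 4, were called. With 3 libraries per genotype, precision is limited to the standard errors given with each gene, and Gpd1 could not be compared at this depth.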
